A study of Homo sapiens with 8 samples.

Results

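The regulators described here are transcription factors and signalling receptors known from T, natural killer (NK) and myeloid cells, measured in a line of the B lineage. They were chosen by gene symbol, from a list of 9 genes: GATA3, TBX21, ID2, ID3, NOTCH1, TCF7, CEBPA, CEBPB and EOMES. All probe sets annotated to exactly 1 of these symbols were taken, which gave 12 probe sets for 8 of the 9 genes, out of 19775 genes with such a probe set. TCF7 had no probe set under the annotation used and was not analysed here.

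RNA came from Reh, an established cell line from an acute lymphoblastic leukaemia of precursor B cells, and was read on Affymetrix U133 Plus 2.0 arrays. Cells received IRF5-4D together with IKKβ(EE), IRF5-4D alone, IKKβ(EE) alone, or control constructs (mock). IRF5-4D is a variant of the transcription factor IRF5, and IKKβ(EE) a variant of the kinase that activates NF-κB; the submitters describe both as constitutively active. Each of the 4 groups had 2 arrays, labelled 1 and 3 and described as biological duplicates, so p-values measure the spread between such duplicates of 1 line. All groups share the Reh background and a transfection; the share of transfected cells, the promoter of the constructs and the time to harvest are not stated in the labels.

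B cell development depends on E proteins and PAX5, which keep the programmes of other blood lineages silent. ID2 and ID3 have no DNA-binding domain of their own and hold E proteins in inactive dimers. NOTCH1 is the receptor that directs early progenitors to the T lineage, with GATA3 and TCF7 acting early in that programme; TBX21 (T-bet) and EOMES are T-box factors of effector T and NK cells. CEBPA and CEBPB are leucine zipper factors of granulocytes and macrophages, and forced CEBPA or CEBPB can turn mouse B cells into macrophages. Several of these regulators, GATA3, ID2 and NOTCH1 among them, are known from the tumour cells of classical Hodgkin lymphoma, which derive from B cells and have lost much of their B cell programme.

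RefSeq sequences around start sites (GRCh38.p14, from 250 bases before to 50 after the start) were matched by symbol for all 9 genes and gave 16 windows, 6 of them for GATA3. Each window was searched on both strands for the κB consensus, the site bound by NF-κB, and for the core of the interferon response element bound by IRF factors, GAAANNGAAA. A κB match was found in 2 of the 16 windows, 1 of GATA3 and 1 of CEBPB, against 7.73% of 35116 windows of this length in the table. The interferon core was found in 0 of the 16, against 3.57% of all windows. The first GATA3 window and the ID2 window are shown because these genes carry the differences below. Of the 6 GATA3 windows, the one shown is the only one with a κB match. Capitals mark this match, which begins 19 bases before the start site and reads as a match on both strands. The 2 windows shown lie at chr10:8045083-8045382 (plus strand) and chr2:8681806-8682105 (plus strand).
GATA3: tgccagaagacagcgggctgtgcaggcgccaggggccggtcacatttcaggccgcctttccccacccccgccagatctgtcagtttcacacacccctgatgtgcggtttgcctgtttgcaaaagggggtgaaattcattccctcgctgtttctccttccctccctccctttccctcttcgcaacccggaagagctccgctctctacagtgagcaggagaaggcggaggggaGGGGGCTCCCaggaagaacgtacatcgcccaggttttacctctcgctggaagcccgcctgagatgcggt
ID2: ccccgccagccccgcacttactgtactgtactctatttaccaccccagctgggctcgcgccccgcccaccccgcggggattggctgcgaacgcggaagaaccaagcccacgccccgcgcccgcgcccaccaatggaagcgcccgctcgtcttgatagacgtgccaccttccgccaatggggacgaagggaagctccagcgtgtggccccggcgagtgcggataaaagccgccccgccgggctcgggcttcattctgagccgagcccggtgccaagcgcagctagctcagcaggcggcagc
A match is a run of letters and no measure of binding, and which GATA3 start site these cells use was not measured.

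Values are log2 RMA expression, with array medians from 5.09 to 5.13 and lower quartiles from 3.67 to 3.73; across probe sets, duplicates within groups had correlations of 0.994 to 0.996. A level near the lower quartile is not shown to lie above background. The B lineage label was borne out by its markers: PAX5 read 12.8 to 13.2, the immunoglobulin recombination gene RAG1 12.4 to 12.8 and the B cell receptor component CD79B 12.1 to 12.5 on the 8 arrays, although VPREB1, of the surrogate light chain, read only 4.06 to 4.46. Of 14 T and NK cell markers, CD247 read 7.91 to 10.1 and the other 13 at most 6.46, with CD3E at 4.35 to 4.58. The 10 myeloid markers read at most 6.15, with CD14 at 3.78 to 4.67. Of 3 probe sets for IKBKB, the gene of IKKβ, 211027_s_at carried the construct, at 11.11 and 9.33 with both constructs and 12.57 and 10.98 with IKKβ(EE), against 4.80 and 4.06 in mock cells (arrays 1 and 3). IRF5 probe set 205469_s_at read 8.002 and 7.82 with both constructs and 7.15 and 7.25 with IRF5-4D, against 6.93 and 7.06 in mock cells. Here the combination exceeded mock by 0.92, IRF5-4D by 0.71 and IKKβ(EE) by 0.88, with limma adjusted p of 0.00648, 0.0414 and 0.0130. On 205468_s_at the values were 5.56 and 5.60 with both constructs and 5.65 and 5.66 with IRF5-4D, against 5.355 and 4.82 in mock cells. The IRF5 probe set 239412_at lay between 4.03 and 4.58 on all arrays. No other IRF5 probe set passed between the combination and another group. Which IRF5 probe sets reach the construct was not tested. The part of IRF5 level in the GATA3 difference was not tested.

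GATA3, a zinc finger factor required for T cell development and type 2 helper T cells, rose with both constructs against mock, and was the 1 regulator of the 8 measured that passed in this comparison. Probe set 209604_s_at read 10.58 and 9.51 on the arrays with both constructs, 8.12 and 7.81 with IRF5-4D, 7.15 and 7.74 with IKKβ(EE), and 7.35 and 7.51 in mock cells. Both arrays of the combination lay above all other arrays, and the remaining 6 arrays spanned less than the step up to them. Probe set 209602_s_at read 7.78 and 6.84 with both constructs, 4.93 and 4.80 with IRF5-4D, 4.28 and 4.97 with IKKβ(EE), and 4.50 and 4.21 in mock cells. Probe set 209603_at read 7.29 and 6.44 with both constructs, 5.05 and 4.84 with IRF5-4D, 4.71 and 4.99 with IKKβ(EE), and 4.91 and 4.98 in mock cells. The same separation of the combination from the other 6 arrays was thus seen on each of the 3 probe sets, which measure 1 gene in the same RNA and are not replicates.

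**Figure D1:**
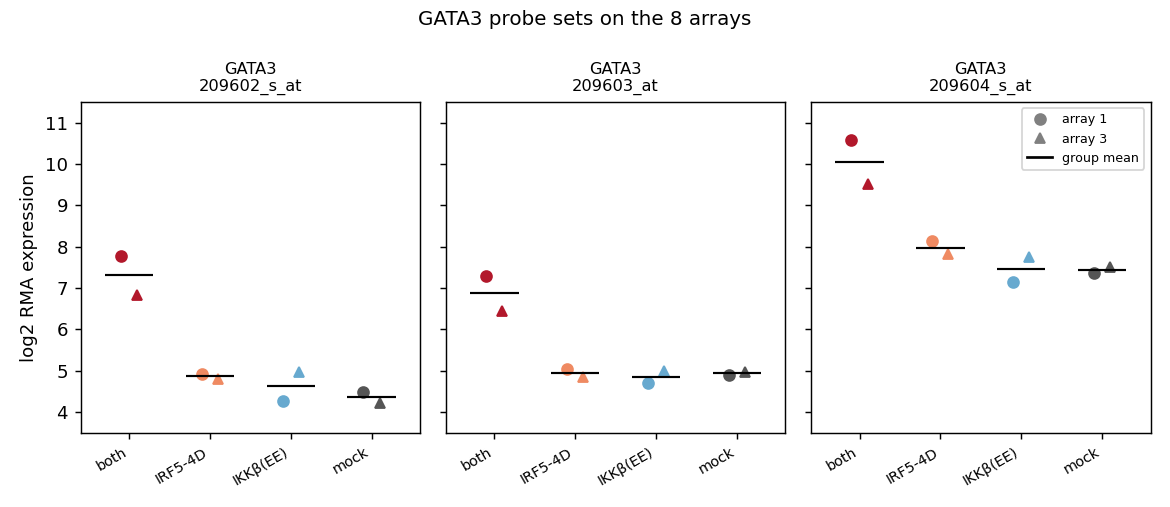
Log2 RMA expression (y axis) of the 3 GATA3 probe sets by transfection group (x axis), with array 1 as a circle, array 3 as a triangle and the group mean as a bar. Both arrays with both constructs lie above the other 6 arrays in each panel, from 10.58 and 9.51 for 209604_s_at to 7.29 and 6.44 for 209603_at.

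Against mock, the combination raised GATA3 by 2.96 (SE 0.30, 7.77-fold, limma adjusted p = 0.00104) on 209602_s_at, by 2.62 (SE 0.31, 6.14-fold, adjusted p = 0.00293) on 209604_s_at and by 1.92 (SE 0.24, 3.80-fold, adjusted p = 0.00373) on 209603_at. The 95% intervals ran from 2.28 to 3.64, from 1.91 to 3.32 and from 1.38 to 2.47. In mock cells 209602_s_at and 209603_at averaged 4.35 ± 0.20 and 4.94 ± 0.05 (SD, n = 2), below the array medians, so the size of a change from there is uncertain. In these bulk samples a larger share of cells with GATA3 RNA and more GATA3 RNA per cell cannot be told apart. These 3 were the probe sets that passed among the 12, all higher, against 1.66% of 54613 probe sets called higher and 2.09% called in either direction in this comparison. They stand for 1 gene of the 8 measured, beside 2.74% of genes called with 1 probe set per gene. The list was chosen with earlier results of these data known, so these shares do not test it.

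Neither construct alone gave a GATA3 difference that passed. With IRF5-4D the differences from mock were 0.54 (SE 0.31, 95% interval -0.17 to 1.25) on 209604_s_at, 0.51 (SE 0.30, -0.17 to 1.19) on 209602_s_at and 0.0035 (SE 0.24, -0.54 to 0.55) on 209603_at. On 209604_s_at and 209602_s_at both IRF5-4D arrays lay above both mock arrays, and on 209603_at they overlapped. With IKKβ(EE) the differences were 0.018 (SE 0.31, -0.69 to 0.72), 0.27 (SE 0.30, -0.40 to 0.95) and -0.093 (SE 0.24, -0.64 to 0.45) in the same order of probe sets, with overlapping arrays on all 3. By mean level of 209604_s_at the order was the combination (10.05 ± 0.76), IRF5-4D (7.97 ± 0.22), IKKβ(EE) (7.45 ± 0.42) and mock (7.43 ± 0.11; SD, n = 2 each), and only the step from the combination to IRF5-4D exceeded the spread in limma's test.

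Set against each single construct, GATA3 was again higher in the combination. Against IRF5-4D it was higher by 2.45 (SE 0.30), 2.08 (SE 0.31) and 1.92 (SE 0.24) on 209602_s_at, 209604_s_at and 209603_at, with limma adjusted p of 0.00731, 0.0196 and 0.00817. These calls depended on both IRF5-4D arrays: without array 1 or array 3 of that group the differences were 1.82 to 2.52 and none of the 3 passed (adjusted p from 0.0739 to 0.182). Against IKKβ(EE) the differences were 2.69 (SE 0.30), 2.60 (SE 0.31) and 2.02 (SE 0.24), with adjusted p of 0.00292, 0.00471 and 0.00459. Without IKKβ(EE) array 1 209604_s_at (2.31, adjusted p = 0.0547) and 209603_at (1.87, adjusted p = 0.0569) no longer passed.

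The interaction subtracts each single construct from the combination and adds mock back, and so asks whether the response to both exceeds the sum of the single responses on the log2 scale. For GATA3 it was 2.17 (SE 0.43, 95% interval 1.22 to 3.13) on 209602_s_at, 2.06 (SE 0.44, 1.06 to 3.06) on 209604_s_at and 2.01 (SE 0.34, 1.25 to 2.78) on 209603_at. None passed limma's test over all probe sets (adjusted p of 0.203, 0.262 and 0.129), where 0.0623% of probe sets were called. Without array 3 of the combination all 3 passed (2.64, 2.60 and 2.44, with adjusted p from 0.00544 to 0.0275). Within the combination, array 1 read above array 3 by 0.94 on 209602_s_at, 1.07 on 209604_s_at and 0.86 on 209603_at. The construct probe set of IKBKB was also higher on array 1 there, at 11.11 against 9.33. With IKKβ(EE) alone that probe set was again higher on array 1, at 12.57 against 10.98. GATA3 went the other way in that group, with array 1 minus array 3 at -0.70, -0.59 and -0.29 in the same order. The part of construct level in the GATA3 gap was not tested.

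Across all 8 arrays the genes most like GATA3 (209602_s_at) by Pearson correlation were TMCC3 (r = 0.993), CHMP5 (r = 0.986), a subunit of the ESCRT-III membrane remodelling complex, and ADAM8 (r = 0.984), a membrane metalloprotease of leukocytes. These are descriptions over 8 arrays that share 4 groups. TMCC3 read 7.83 and 6.69 with both constructs, 3.96 and 4.05 with IRF5-4D, 3.47 and 4.03 with IKKβ(EE), and 3.94 and 3.56 in mock cells. Both arrays of the combination lay above the other 6. TMCC3 was higher in the combination by 3.51 (SE 0.33) over mock, against 1.003 (SE 0.13) for CHMP5 and 0.78 (SE 0.15) for ADAM8.

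ID2 and ID3, the inhibitors of E proteins, were both at high levels in mock cells. ID2 was highest with IKKβ(EE) alone and not with both constructs. Probe set 201566_x_at read 8.17 and 7.66 with both constructs, 8.58 and 8.08 with IRF5-4D, 9.13 and 9.03 with IKKβ(EE), and 8.08 and 8.03 in mock cells. Probe set 201565_s_at read 10.97 and 10.28 with both constructs, 11.18 and 11.03 with IRF5-4D, 11.86 and 11.44 with IKKβ(EE), and 10.90 and 10.65 in mock cells. On both probe sets the IKKβ(EE) arrays lay above all other arrays, and the arrays of the combination overlapped those of mock.

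Against IKKβ(EE), the combination had lower ID2 by both probe sets, of which 1 passed. The difference was -1.17 (SE 0.20, 95% interval -1.61 to -0.72, limma adjusted p = 0.0278) on 201566_x_at, a 2.24-fold lower value, and -1.02 (SE 0.23, -1.53 to -0.51, adjusted p = 0.0817) on 201565_s_at. The first call was lost without combination array 3 (-0.91, adjusted p = 0.113) and without either IKKβ(EE) array (-1.12 and -1.22, adjusted p of 0.177 and 0.170), and without combination array 1 the second passed (-1.37, adjusted p = 0.0307). Probe sets ending in _x_at may bind several transcripts. In the same comparison the construct probe set of IKBKB, 211027_s_at, differed by -1.56 (SE 0.59, limma adjusted p = 0.375), with overlapping arrays. The part of construct level in the ID2 difference was not tested. IKKβ(EE) against mock gave 1.03 (SE 0.20, 95% interval 0.58 to 1.47, adjusted p = 0.114) and 0.87 (SE 0.23, 0.36 to 1.38, adjusted p = 0.339) on 201566_x_at and 201565_s_at, neither past the threshold over all probe sets. The combination against mock gave -0.14 (SE 0.20, -0.59 to 0.31) and -0.15 (SE 0.23, -0.66 to 0.36), and IRF5-4D against mock 0.27 (SE 0.20) and 0.33 (SE 0.23). The interaction was -1.44 (SE 0.28, adjusted p = 0.203) and -1.35 (SE 0.32, adjusted p = 0.344), opposite in sign to that of GATA3, and did not pass.

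ID3 (207826_s_at) read 11.22 and 10.89 with both constructs, 11.13 and 11.44 with IRF5-4D, 11.17 and 11.49 with IKKβ(EE), and 11.07 and 11.37 in mock cells. All 4 groups overlapped. The differences from mock were -0.17 (SE 0.18, 95% interval -0.58 to 0.24) with both constructs, 0.063 (SE 0.18, -0.34 to 0.47) with IRF5-4D and 0.11 (SE 0.18, -0.30 to 0.52) with IKKβ(EE).

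**Figure D2:**
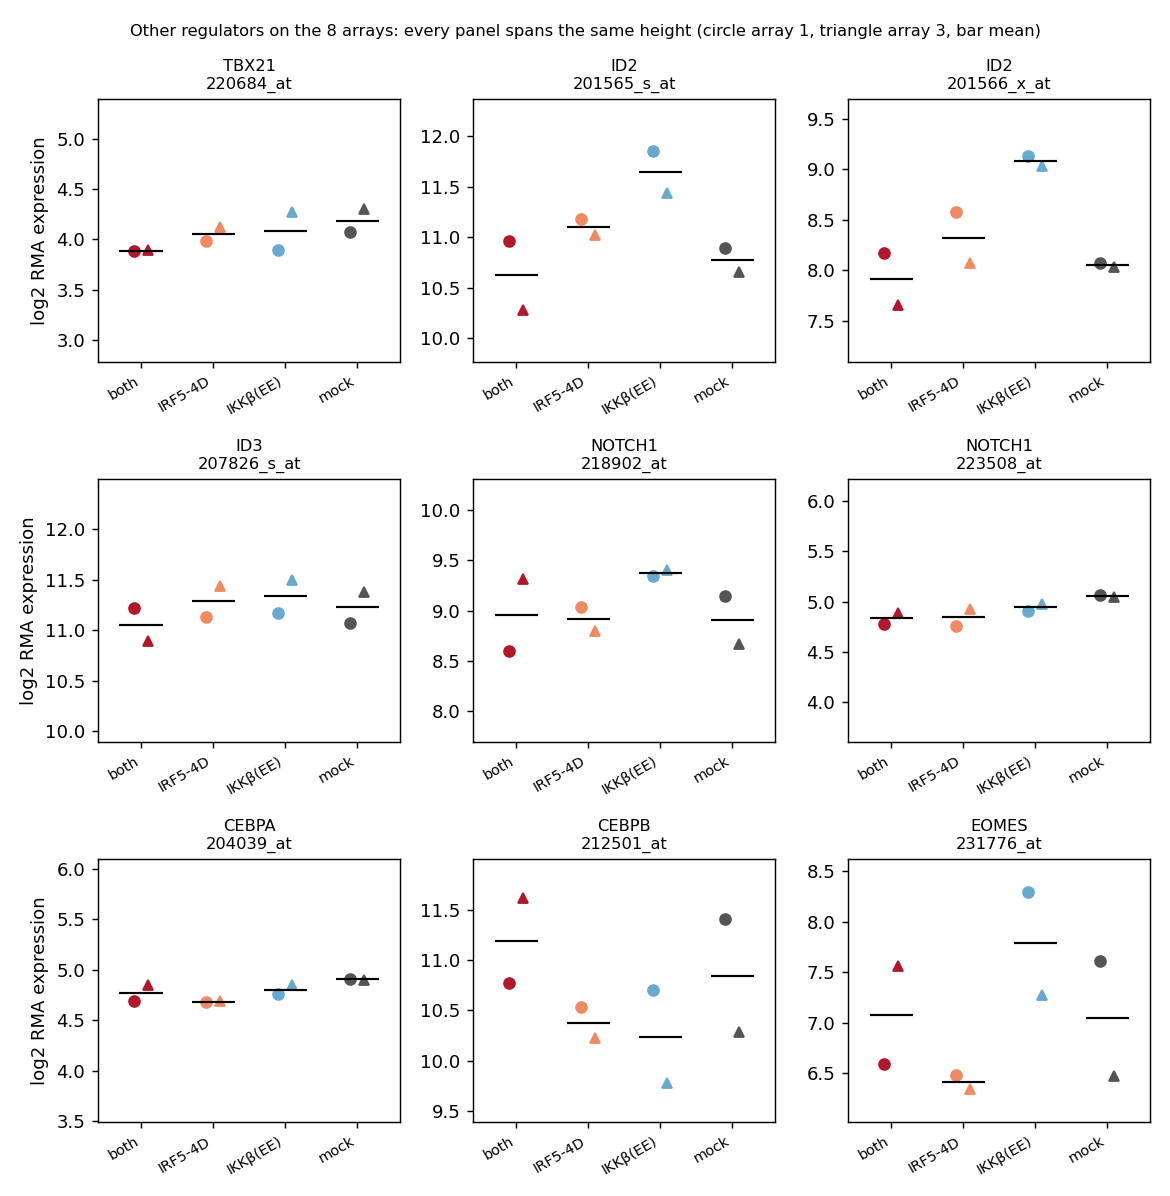
Log2 RMA expression (y axis) of the other 9 probe sets by transfection group (x axis), with array 1 as a circle, array 3 as a triangle and the group mean as a bar; every panel spans the same height. ID2 is highest with IKKβ(EE) on both probe sets, while the arrays of a group lie far apart for CEBPB and EOMES.

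NOTCH1, the receptor, read 8.60 and 9.31 with both constructs, 9.03 and 8.80 with IRF5-4D, 9.34 and 9.40 with IKKβ(EE), and 9.14 and 8.67 in mock cells on 218902_at. The IKKβ(EE) arrays lay above the others by a narrow margin, at 0.46 (SE 0.23, 95% interval -0.06 to 0.98, limma adjusted p = 0.814) over mock. The combination differed from mock by 0.05 (SE 0.23, -0.47 to 0.57). Its other probe set, 223508_at, stayed between 4.76 and 5.06 on all arrays, near the array median.

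The T-box factors differed in level and in spread. TBX21 (220684_at) lay between 3.88 and 4.30 on all 8 arrays, close to the lower quartile, with differences from mock of -0.29 (SE 0.15) with both constructs, -0.13 (SE 0.15) with IRF5-4D and -0.10 (SE 0.15) with IKKβ(EE). EOMES (231776_at) read 6.59 and 7.56 with both constructs, 6.48 and 6.34 with IRF5-4D, 8.30 and 7.27 with IKKβ(EE), and 7.62 and 6.47 in mock cells. Its arrays within a group lay up to 1.14 apart, and its differences from mock of 0.03 (SE 0.44, 95% interval -0.95 to 1.01), -0.63 (SE 0.44, -1.61 to 0.35) and 0.74 (SE 0.44, -0.24 to 1.72) for the combination, IRF5-4D and IKKβ(EE) did not pass. The difference of EOMES between IRF5-4D and IKKβ(EE) was -1.37 (SE 0.44), and it did not pass over all probe sets (limma adjusted p = 0.480).

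The myeloid factors did not pass in any comparison. CEBPA (204039_at) lay between 4.68 and 4.91 on all 8 arrays, below the array medians, and differed from mock by -0.14 (SE 0.12) with both constructs. CEBPB (212501_at) read 10.77 and 11.61 with both constructs, 10.53 and 10.23 with IRF5-4D, 10.70 and 9.78 with IKKβ(EE), and 11.41 and 10.28 in mock cells. Both arrays of the combination lay above those of either single construct, and overlapped those of mock. CEBPB was higher in the combination than with IKKβ(EE) by 0.95 (SE 0.41, 95% interval 0.03 to 1.88, limma adjusted p = 0.468) and than with IRF5-4D by 0.82 (SE 0.41, -0.11 to 1.74, adjusted p = 0.497), and its difference from mock was 0.35 (SE 0.41, -0.58 to 1.27).

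**Figure D3:**
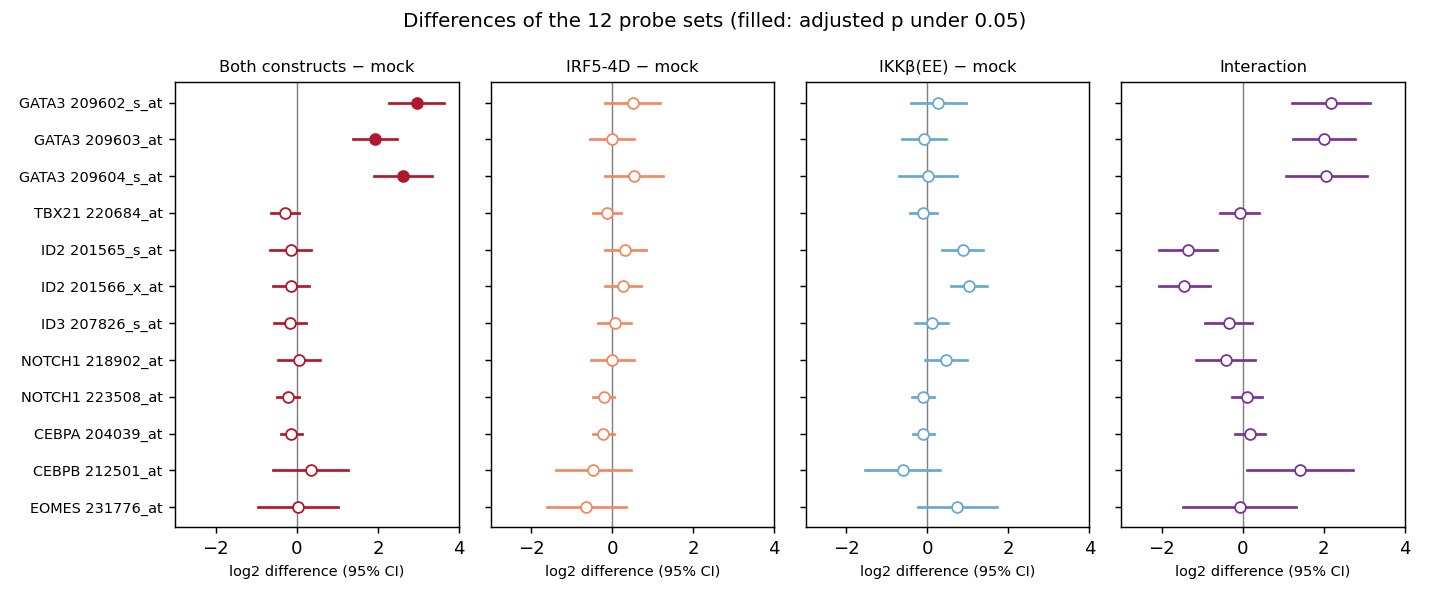
Log2 differences (x axis) with 95% intervals for the 12 probe sets (y axis) in the combination, IRF5-4D and IKKβ(EE) against mock and in the interaction, with filled points at an adjusted p under 0.05. GATA3 has the only filled points, at 2.96, 1.92 and 2.62 in the combination, and ID2 the interactions farthest below 0, at -1.35 and -1.44.

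By count, 0 of the 12 probe sets passed limma's test with IRF5-4D (0.194% of all probe sets called) and 0 with IKKβ(EE) (0.302% called), at an unadjusted p under 0.05 for 0 and 2 of them, beside 5.39% and 6.58% of all probe sets. In the combination 3 passed against mock and the same 3 against IRF5-4D, all higher (0.842% called, 0.654% higher). Against IKKβ(EE) 4 passed, 3 higher and 1 lower (1.11% called, 0.837% higher and 0.275% lower). IRF5-4D against IKKβ(EE) had 0 (0.483% called) and the interaction 0, at an unadjusted p under 0.05 for 3 and 6 of the 12, beside 6.66% and 6.48% of all probe sets. The median difference over the 12 was -0.05 in the combination against mock, beside -0.04 over all probe sets. The contrasts share arrays, mock in particular, and are not independent of each other.

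Other regulators of the same lineages were taken from lists, each gene by its probe set of highest mean level. Of 18 other T, NK and innate lymphoid regulators, among them RUNX3, BCL11B and TOX, 0 passed in the combination, IRF5-4D or IKKβ(EE) against mock (2.74%, 0.293% and 0.425% of genes called), and the median difference in the combination was -0.03, beside -0.03 over all genes. The 2 of highest level were LEF1, a partner of β-catenin, and NFIL3, a leucine zipper factor of NK cell development. LEF1 and NFIL3 differed by -0.19 (SE 0.12) and 0.07 (SE 0.12). The largest differences in the combination were those of IKZF2, GFI1 and BATF, each with both arrays above both mock arrays. They were 1.297 (SE 0.355), 0.862 (SE 0.318) and 0.556 (SE 0.153), with limma adjusted p of 0.121, 0.253 and 0.123. BCL11B lay farthest below 0, at -0.404 (SE 0.370) with overlapping arrays, and 9 of the 18 differences were above 0. Of 16 other myeloid regulators 1 rose in the combination and 0 with a single construct. It was BATF3, an AP-1 factor of dendritic cells, which read 8.39 and 8.35 with both constructs, 7.22 and 7.48 with IRF5-4D, 7.18 and 7.16 with IKKβ(EE), and 7.23 and 7.23 in mock cells, a rise of 1.14 (SE 0.12, limma adjusted p = 0.00149) over mock.

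Among 5 other ID and E proteins, the E protein TCF12 rose by 0.70 (SE 0.11, limma adjusted p = 0.015) in the combination and the other 4 did not pass. Of the 4 TCF12 probe sets, 1 passed, with differences from -0.32 to 0.70. Of 30 other NOTCH pathway genes 2 rose and 0 fell in the combination (2.74% of genes called), with a median of 0.04. HEY2, a transcriptional repressor induced by NOTCH, read 7.14 and 6.44 with both constructs, 6.95 and 7.46 with IRF5-4D, 5.73 and 5.30 with IKKβ(EE), and 5.08 and 4.82 in mock cells. It rose by 1.84 (SE 0.26, adjusted p = 0.00658) in the combination and by 2.26 (SE 0.26, adjusted p = 0.00823) with IRF5-4D. It was the 1 pathway gene that passed with IRF5-4D (0.293% of genes called), and 0 passed with IKKβ(EE) (0.425% called). The IRF5-4D call of HEY2 held in 4 of 8 fits that left out 1 array. NOTCH2 rose by 0.88 (SE 0.17, adjusted p = 0.0328) in the combination, on 3 of its 4 probe sets, and this call held in 2 of 8 such fits.

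B lineage regulators were set beside them. Of 18, 2 rose and 1 fell in the combination (2.74% of genes called), with a median of 0.10. With IRF5-4D and with IKKβ(EE) 0 passed (0.293% and 0.425% called). IRF4, a factor of activated B cells and plasma cells, rose in the combination by 2.81 (SE 0.33, limma adjusted p = 0.00232) on 1 of its 3 probe sets. The Ets factor SPIB rose there by 0.85 (SE 0.12, adjusted p = 0.0059), on 1 of its 2 probe sets. BCL6, the repressor of germinal centre B cells, fell by 0.75 (SE 0.15, adjusted p = 0.0328), on 2 of its 3 probe sets, and this call held in 2 of 8 fits that left out 1 array. PAX5 differed from mock by -0.0055 (SE 0.15) and EBF1, which opens the B cell programme, by 0.16 (SE 0.15) in the combination. Of 13 precursor B cell markers 0 passed in the 3 comparisons with mock, with DNTT, the template-independent polymerase of recombination, at 0.15 (SE 0.12) and CD24 at 0.05 (SE 0.12).

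**Figure D4:**
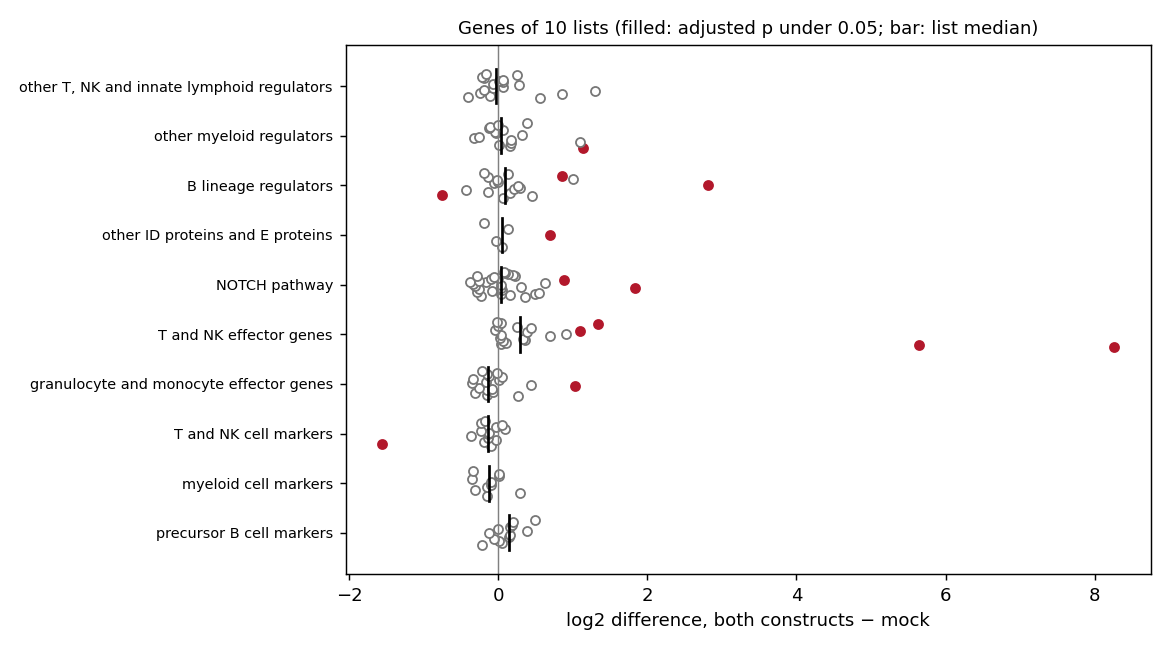
Log2 differences of the combination from mock (x axis) for single genes of 10 lists (y axis), each by 1 probe set, with filled points at an adjusted p under 0.05 and a bar at the list median. Most medians lie near 0, that of T and NK effector genes lies at 0.29, and CCL4 is farthest from 0 at 8.26.

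Markers of other cell types were counted beside GATA3. Of 14 T and NK cell markers 0 rose and 1 fell in the combination (2.74% of genes called), with a median of -0.14. The sum of their linear values was 636 to 771 with both constructs, 999 to 1263 with IRF5-4D and 885 to 975 with IKKβ(EE), against 1131 to 1557 in mock cells. Without CD247, taken out after its values were seen, the sum of the other 13 was 396 to 404 with both constructs, against 441 to 448 in mock cells. With IRF5-4D it was 397 to 414 and with IKKβ(EE) 408 to 411, so the lower sum was not particular to the combination. CD247, a signalling chain of the T cell receptor complex, fell in the combination by 1.56 (SE 0.27, limma adjusted p = 0.0198) on 1 of its 2 probe sets. Of 10 myeloid cell markers 0 passed in the combination, with a median of -0.12 and sums of 260 to 293 against 302 to 320 in mock cells, and with CSF1R at -0.32 (SE 0.14) and ITGAM at -0.35 (SE 0.11). The myeloid sums were 290 to 326 with IRF5-4D and 264 to 294 with IKKβ(EE). The part of other cell types in the GATA3 difference was not tested.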

How the data were processed

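RNA of 8 arrays in 4 groups was grouped by the transfection label. The deposited values are log2 expression, 1 per probe set and array, made by the authors with RMA, per the submitters' processing notes; no version of it is stated. RMA quantile-normalizes arrays, so a shift shared by most probe sets is not seen. Symbols came from the platform annotation. The 62 control probe sets were left out.

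The other 54613 probe sets were fitted with limma 3.58.1 in R 4.3.3 (4 group means, lmFit, eBayes) with Benjamini-Hochberg adjustment over all of them and a call at an adjusted p under 0.05. No filter on level was applied. The calculation was tested on simulated data. A list gene was represented by its probe set of highest mean. Named were all members, up to 4 called genes of each list by size of difference, and further genes by level. GZMA and IFNG, and some genes given as examples or markers, were named outside these rules. The genes of highest correlation with GATA3 were also named, as were T, NK and innate lymphoid regulators with the largest differences. The members and lists were chosen with earlier results of these data known. Alternatives covered the block, variance prior, weights, normalization, filters, probe sets, samples, threshold and leaving out each array. With 2 arrays a group, their number limits the precision.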

Additional observations from a re-analysis of the deposited data

Results flagged for a closer look

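ID2 on probe set 201565_s_at stood out because the response to a construct pointed in opposite directions with and without the other construct. IKKβ(EE) moved both arrays up when added to mock and both down when added to IRF5-4D, and IRF5-4D likewise moved both up on mock and both down on IKKβ(EE). The interaction was -1.35 (SE 0.32) in both readings, which are 1 quantity, and did not pass limma's test over all probe sets (adjusted p = 0.344). The steps of 0.33 (SE 0.23) from mock to IRF5-4D and -0.48 (SE 0.23) from IRF5-4D to the combination did not pass either. On the other ID2 probe set, 201566_x_at, the arrays overlapped in both of these steps, so the condition was not met there.

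CEBPA on 204039_at met the same condition for IKKβ(EE), with both arrays lower than mock without IRF5-4D and both above the highest IRF5-4D array with it. The last margin was close to a tie, at 4.689 on combination array 1 and 4.68817 on IRF5-4D array 3. The interaction of CEBPA was 0.19 (SE 0.16, 95% interval -0.18 to 0.56) and did not pass (limma adjusted p = 0.906).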

How the results depend on the processing

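No called difference of the 12 probe sets changed sign: of 1612 values under alternatives, 46 changed sign and 0 of these were called, 13 lost a call and 11 gained one. Most of the 1612 belong to differences without a call in the main fit. In the combination the main fit had 3 calls against mock, 3 against IRF5-4D and 4 against IKKβ(EE), and only these could be lost. The numbers 1 and 3 are not said to mark pairs, and the correlation of array gaps between groups was -0.05 to 0.30. With the replicate block, IKKβ(EE) against mock gave 2 calls and the interaction 2, all of ID2, against 0 each without it. With 1 probe set per gene, GATA3 was represented by 209604_s_at and ID2 by 201565_s_at, which left out the called ID2 probe set 201566_x_at. The combination then gave 1 call against mock, 1 against IRF5-4D and 1 against IKKβ(EE), each of GATA3. With only the groups compared in the fit, IKKβ(EE) against mock gave 1 call. Leaving out 1 array, the combination kept 3 calls against mock, had 0 to 3 against IRF5-4D (0 without either IRF5-4D array) and 1 to 5 against IKKβ(EE) (1 without IKKβ(EE) array 1), and the interaction had 0 to 3 (3 without combination array 3). Over all probe sets, calls in the combination against mock were 1829 with the block, 523 with only the groups compared and 588 to 978 without 1 array, against 1139. The causes were not tested. Low signal limits TBX21, CEBPA and the weaker NOTCH1 probe set.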

Other observations

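Effector genes of T and NK cells were the list with most calls. Of 20 such genes 4 rose in the combination against mock, 3 with IRF5-4D and 0 with IKKβ(EE) (2.74%, 0.293% and 0.425% of genes called). The medians were 0.29, 0.0016 and 0.068. The chemokine gene CCL5 read 13.62 and 12.68 with both constructs, 11.39 and 11.03 with IRF5-4D, 9.77 and 8.95 with IKKβ(EE), and 7.71 and 7.31 in mock cells. NKG7, a granule membrane protein of cytotoxic cells, rose by 1.34 (SE 0.18, limma adjusted p = 0.00609) and IL18RAP, a subunit of the interleukin 18 receptor, by 1.09 (SE 0.16, adjusted p = 0.00808) in the combination. GZMA, a cytotoxic granule protease, read 4.61 and 4.19 with both constructs, 6.42 and 5.59 with IRF5-4D, 3.71 and 4.22 with IKKβ(EE), and 4.32 and 3.74 in mock cells, and rose with IRF5-4D by 1.97 (SE 0.30, adjusted p = 0.0451). IFNG, the cytokine controlled by TBX21 and EOMES in T cells, differed by 0.70 (SE 0.16, adjusted p = 0.0732) in the combination. Of 18 granulocyte and monocyte effector genes, IL1B rose in the combination by 1.03 (SE 0.18, adjusted p = 0.0224), a call that held in 4 of 8 fits that left out 1 array.

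A probe set annotated to both ID2 and ID2B (213931_at) lies outside the rule. It read 8.85 and 8.06 with both constructs, 9.62 and 9.43 with IRF5-4D, 10.17 and 9.77 with IKKβ(EE), and 9.83 and 8.67 in mock cells, and the combination differed from IKKβ(EE) by -1.52 (SE 0.36, limma adjusted p = 0.103).

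CEBPB and EOMES differed between the arrays of a group in the same pattern. Array 1 exceeded array 3 by 1.13 for CEBPB and 1.14 for EOMES in mock cells and by 0.92 and 1.03 with IKKβ(EE), and lay below it by -0.84 and -0.97 with both constructs.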
